A study of Arabidopsis thaliana with 2 samples.

Results

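The chloroplast-encoded genes of Arabidopsis thaliana (thale cress) were followed in leaves of the aquaporin mutant atpip1;2-1 and of the wild type. They were taken as every locus of the count tables whose identifier starts with ATCG, which gave 88 of 27336 loci. There were 5 pairs of these loci with at least 10 reads and identical counts, placed as mirror images in locus order. Each such pair was counted as 1, which left 83 members.

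There was 1 library for each genotype, from the leaves of 10 soil-grown plants of the Columbia ecotype at an age of 3 weeks. Both genotypes had 12 h of light per day at 70 to 80 umol and 370 umol of carbon dioxide per mol. Temperatures were 24 C by day and 20 C by night, at 60% humidity. The mutant lacks normal amounts of PIP1;2, an aquaporin of the plasma membrane. The sources used here do not give the nature of the allele, and they name no other allele or treatment for either genotype. The comparison addresses how leaf transcripts differ in a plant short of this channel, which has been studied as a path for both water and carbon dioxide into leaf cells. Because plants were pooled into 1 library, the differences below have no replicate check. Intervals are 95% intervals of counting error alone and compare these 2 libraries, not the genotypes. Without molecular identifiers, several reads can stem from 1 molecule.

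The atpip1;2-1 library held 4041759 reads and the wild-type library held 4079098. PIP1;2 (AT2G45960) had 566 reads in the atpip1;2-1 library and 4211 reads in the wild-type library, a log2 ratio of -2.95 (-3.08 to -2.83). The leaf markers RBCS1A, CAB1, CA1 and GLDP1 each had at least 4639 reads in the atpip1;2-1 library and at least 5845 in the wild-type library. Of the markers of other organs, the root gene PYK10 had 15 and 10 reads in the atpip1;2-1 and wild-type libraries, and the root gene BGLU22, the seed storage gene CRA1 and the pollen allergen gene AT5G45880 had 0 in both.

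The chloroplast keeps a small genome of its own, a remnant of the cyanobacterium from which it descends. That genome encodes core proteins of both photosystems, of the cytochrome b6f complex, the ATP synthase and the NDH complex, the large subunit of Rubisco, part of the plastid ribosome and the core of a bacterial-type RNA polymerase. The remaining subunits of these complexes are encoded in the nucleus, as are the sigma factors that guide the bacterial-type polymerase to its promoters and a second, phage-type polymerase. Many chloroplast genes are transcribed together as operons, and a large inverted repeat in the genome holds a second copy of some of them. Mature chloroplast messenger RNAs mostly end in a stem-loop and not in the long poly(A) tail of nuclear messengers, and short A-rich tails on chloroplast RNA are known as a mark for degradation. Each library covers transcript 3' ends, but how they were primed is not given here. Reads at a chloroplast locus therefore need not stand in proportion to its transcript, and levels are compared below between libraries and not, as transcript amounts, between loci.

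The count files give locus identifiers without names. The RefSeq gene table of assembly TAIR10.1 lists 85 protein-coding, 37 tRNA and 7 rRNA genes in the chloroplast but pairs 0 of the 88 identifiers with a symbol. Descriptions of nuclear relatives in the same annotation name 6 of the 88. These are ATCG00430 (named photosystem II reaction center protein G there, which may be an older name and was not checked), ATCG00530 (a CemA-like protein), ATCG00660 (ribosomal protein L20), ATCG00670 (the plastid-encoded protease subunit CLP P), ATCG00750 (ribosomal protein S11) and ATCG01310 (ribosomal protein L2). The other 82 loci are given by identifier only, with no role.

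All 88 chloroplast loci, with both loci of each identical pair, took 1.94% of all reads in the atpip1;2-1 library (exact binomial interval 1.93% to 1.95%). In the wild-type library they took 2.00% (1.99% to 2.01%). With each pair counted once, the shares were 1.78% in the atpip1;2-1 library and 1.81% in the wild-type library, a log2 ratio of -0.027. In these bulk leaf samples, the share of cells rich in chloroplasts, the chloroplast RNA per cell and its capture in the library cannot be told apart. All 88 loci held 78358 reads in the atpip1;2-1 library and 81565 in the wild-type library. The log2 ratio of their shares was -0.04 (-0.06 to -0.03). Its direction rested on 1 locus, ATCG00470, since the ratio was 0.04 without it, and it was -0.11 without ATCG01020. The 122 mitochondria-encoded loci together held 1229 reads in the atpip1;2-1 library and 1113 in the wild-type library, or 0.0304% and 0.0273% of reads.

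The 5 pairs with identical counts mirrored each other in locus order, and no other 2 chloroplast loci with at least 10 reads shared both counts. The pair of ATCG00900 and ATCG01240 had 4033 reads at each locus in the atpip1;2-1 library and 4250 in the wild-type library. ATCG00830 and ATCG01310, the second of them annotated as ribosomal protein L2 of the large plastid ribosomal subunit, had 2437 and 3369. The pair of ATCG00860 and ATCG01280 had 59 reads in the atpip1;2-1 library and 64 in the wild-type library. ATCG00840 and ATCG01300 had 27 and 26 reads in these libraries, and ATCG00890 and ATCG01250 had 4 and 13. A further mirrored pair, ATCG00870 and ATCG01270, had 0 reads in both libraries and stayed 2 members. Below 10 reads, equal small counts at other loci were not taken as copies. The mirrored order is that of the 2 arms of an inverted repeat. Reads at both loci of such a pair cannot be told apart. With these pairs counted once, the chloroplast reads came to 71798 in the atpip1;2-1 library and 73843 in the wild-type library.

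Reads were concentrated at few loci in both libraries. The 3 members with most reads held 61.4% of the chloroplast reads in the atpip1;2-1 library (61.0% to 61.8%) and 64.5% in the wild-type library (64.2% to 64.8%). The 12 members with most reads held 94.2% and 94.3%. At the other end, 4 members had no read in either library, for which the one-sided 95% limit is 3 reads, or 0.724 CPM (counts per 1000000 reads of the TMM-scaled library) in the atpip1;2-1 library and 0.754 CPM in the wild-type library. A further 28 members had 1 to 19 reads over both libraries, and the 32 members under 20 reads together held 129 reads in the atpip1;2-1 library and 128 in the wild-type library. The order of members by reads was nearly the same in both libraries (Spearman's rho 0.98 over 83 members that share the 2 libraries, given as a description).

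Several of the loci with many reads stood beside loci with few. Neighbours here and below are adjacent loci among the 88 rows. Numbers are missing between some of their identifiers, and whether other genes lie between them was not checked. ATCG00220 had 14607 reads in the atpip1;2-1 library and 14667 in the wild-type library. The neighbours of ATCG00220 in locus order, ATCG00210 and ATCG00270, had 0 and 4 reads in each library. ATCG00740 had 2861 reads in the atpip1;2-1 library and 3057 in the wild-type library. Beside it, ATCG00730 had 2 and 0 reads, and ATCG00750, the S11 protein of the small plastid ribosomal subunit, had 10 and 7. Of the 12 members with most reads, 5 had neither neighbour at 10% or more of their own reads, 6 had 1 such neighbour and 1 had both. ATCG00440 and ATCG00470 were next to each other in locus order and both belonged to the 3 members with most reads, whereas ATCG00480, on the far side of ATCG00470, had 23 reads in each library.

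**Figure D1:**
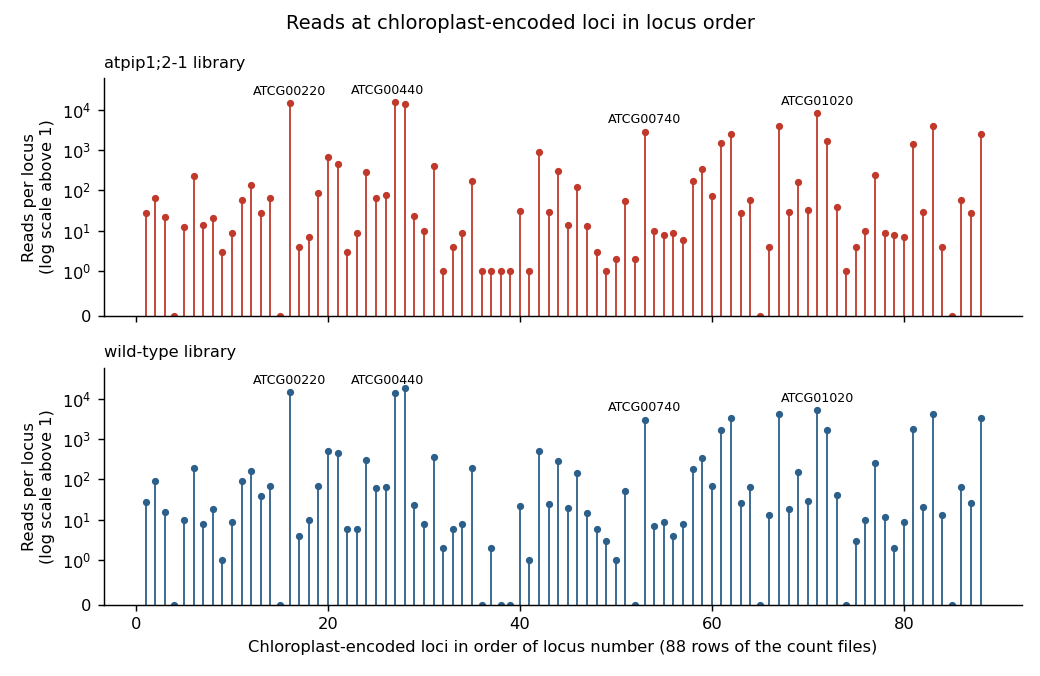
Reads at each of the 88 chloroplast-encoded loci in order of locus number (vertical axis logarithmic above 1 read), with the atpip1;2-1 library above and the wild-type library below. Both libraries show the same few high loci, such as ATCG00220 with 14607 reads in the atpip1;2-1 library and 14667 in the wild-type library, which stands between loci with 0 and 4 reads in each library.

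A locus was called different between the libraries when its reads differed at least 2-fold, the interval of its log2 ratio excluded 0 and the exact binomial test of the reads gave an adjusted p under 0.05 (Benjamini-Hochberg over all 15111 loci with at least 20 reads). Of the 83 members, 51 had enough reads and 0 were called, where 2.40% of all loci tested were called. The log2 ratios of the 51 ran from -0.74 to 0.75. The median was -0.06, with quartiles at -0.20 and 0.15, beside a median of -0.00 and quartiles at -0.27 and 0.26 over all loci tested. The sign of the members' median depended on the scaling, as it was 0.013 with total counts as library sizes. Of the 51 members, 20 had a positive log2 ratio and 31 a negative one, beside 49.8% positive and 50.2% negative over all loci tested.

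**Figure D2:**
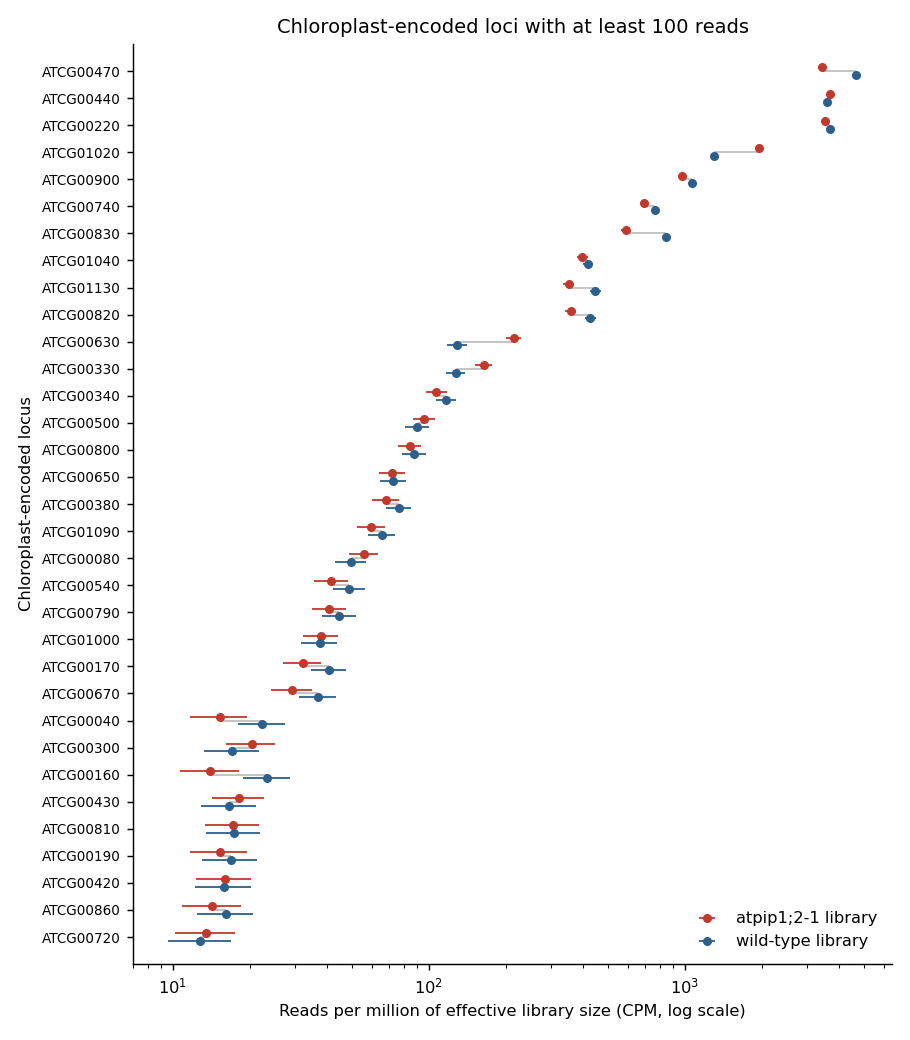
Levels of the 33 chloroplast-encoded loci with at least 100 reads over both libraries, in CPM on a logarithmic axis, with the atpip1;2-1 library in red and the wild-type library in blue and bars for the 95% counting interval. The 2 points of a locus lie less than 2-fold apart at each of the 33 loci, and ATCG00630 and ATCG00160 have the widest gaps, with log2 ratios of 0.73 and -0.74.

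Below 2-fold, 13 members had an interval that excluded 0, and 23.5% of all loci tested did so. These intervals were not adjusted for the number of loci. Of the 13, 3 were higher and 10 were lower in the atpip1;2-1 library, and this split depended on the scaling. It was 4 higher and 7 lower with total counts as library sizes, 4 and 9 with DESeq2 size factors, 4 and 8 with totals without organelle loci, and 5 and 5 with the sum of chloroplast reads. At a fold of 1.5 with an interval that excluded 0 there were 3 of the 51 members, 2 higher and 1 lower, where the share over all loci tested was 11.3% (5.34% higher and 5.93% lower). All 3 were among members with at least 100 reads, and there the share was 9.09% of 33 members, beside 12.0% of 8703 nuclear loci at the same depth.

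ATCG00630 had the highest log2 ratio among members with at least 100 reads. It had 889 reads in the atpip1;2-1 library and 514 in the wild-type library, which was 215 CPM (201 to 229) against 129 CPM (118 to 141) and a log2 ratio of 0.73 (0.58 to 0.89). The intervals of the 2 levels did not overlap. The loci on either side had few reads, with 1 in each library at ATCG00600, and 29 in the atpip1;2-1 library and 24 in the wild-type library at ATCG00640.

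ATCG01020 had the largest difference upward in reads. It had 8095 reads in the atpip1;2-1 library and 5183 in the wild-type library, or 1955 and 1302 CPM, and its log2 ratio was 0.59 (0.54 to 0.64). The fold of 1.501 stood at the limit of the 1.5-fold rule. A depth of at least 10000 reads, a limit chosen after the values were seen, was reached by 92 nuclear loci, and 2 of these passed that rule. Of the 4 members at that depth, 1 passed it. At a depth of at least 1000 reads, 16.7% of 12 members and 16.7% of 1053 nuclear loci passed it. The share of ATCG01020 in the chloroplast reads was 11.3% in the atpip1;2-1 library (11.0% to 11.5%) and 7.02% in the wild-type library (6.84% to 7.21%). Of the 2 loci next to ATCG01020, ATCG01040 did not share its difference. ATCG01040 had 1644 reads in the atpip1;2-1 library and 1666 in the wild-type library (log2 ratio -0.08, -0.18 to 0.02). ATCG01010 had 32 and 30 reads in these libraries (0.04, -0.73 to 0.80). That interval held both 0 and the ratio of ATCG01020, so the reads of ATCG01010 were too few to tell.

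ATCG00330 was the remaining higher member whose interval excluded 0, with 679 reads in the atpip1;2-1 library and 507 in the wild-type library (log2 ratio 0.36, 0.20 to 0.53). The neighbouring ATCG00340, with 443 and 465 reads in these libraries, had a log2 ratio of -0.13 (-0.32 to 0.06). ATCG00300, on the other side, had 84 and 68 reads (0.25, -0.23 to 0.73). The intervals of both neighbours thus held 0.

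ATCG00470 had the largest difference downward in reads, and its place relative to its neighbour ATCG00440 differed between the libraries. ATCG00470 had 14244 reads in the atpip1;2-1 library and 18621 in the wild-type library, or 3439 and 4677 CPM, a log2 ratio of -0.44 (-0.48 to -0.41). It was the member with most reads in the wild-type library and stood behind ATCG00440 and ATCG00220 in the atpip1;2-1 library. ATCG00440 had 15237 reads in the atpip1;2-1 library, the most of any member there, and 14341 in the wild-type library (0.03, -0.00 to 0.06), and its interval lay above 0 under all 4 other scalings. ATCG00220 lay between them in both libraries, with a log2 ratio of -0.06 (-0.10 to -0.03), and its ratio was 0.007 with total counts as library sizes and 0.035 with the sum of chloroplast reads. The interval of ATCG00220 held 0 with total counts and with totals without organelle loci. It lay above 0 with the sum of chloroplast reads, so its direction depended on the scaling. The summed level of the members was 17337 CPM in the atpip1;2-1 library and 18549 CPM in the wild-type library, a difference of -1212 CPM. The difference at ATCG00470 alone was -1238 CPM, and that at ATCG01020 was 653 CPM. How near the summed difference lay to that of ATCG00470 depended on the scaling. The log2 ratio of the summed level was -0.097 with TMM sizes and -0.027 with total counts. With total counts, the log2 ratio of ATCG00470 was -0.37.

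**Figure D3:**
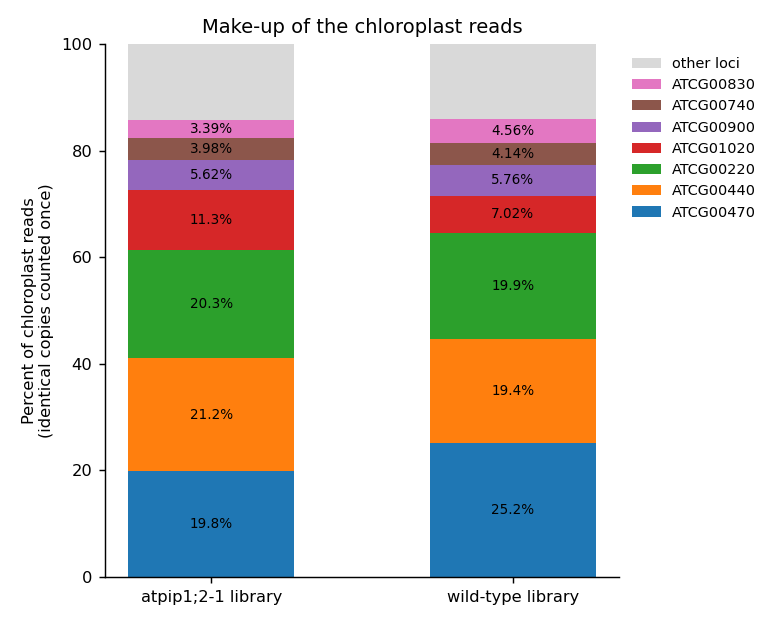
Make-up of the chloroplast reads in percent, with identical copies counted once, in the atpip1;2-1 library (left) and the wild-type library (right). ATCG00470 held 19.8% of these reads in the atpip1;2-1 library and 25.2% in the wild-type library, ATCG01020 held 11.3% and 7.02%, and the other 5 loci drawn differed by less than 2 percentage points.

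Among the members with a name in the annotation, the ribosomal protein L2 locus showed the clearest difference. It had 588 CPM in the atpip1;2-1 library (565 to 612) and 846 CPM in the wild-type library (818 to 875), with a log2 ratio of -0.52 (-0.60 to -0.45) for ATCG01310 and its copy ATCG00830. The locus before ATCG00830, ATCG00820, had 1485 reads in the atpip1;2-1 library and 1701 in the wild-type library (-0.25, -0.35 to -0.15). The locus after it, ATCG00840, had 27 and 26 reads. The other named members had intervals that held 0. CLP P (ATCG00670), the proteolytic subunit of a chloroplast protease that the chloroplast itself encodes, had 121 reads in the atpip1;2-1 library and 147 in the wild-type library (-0.34, -0.70 to 0.02). L20 (ATCG00660), a protein of the large ribosomal subunit, had 14 and 20 reads (-0.57, -1.67 to 0.49), and ATCG00430 had 75 and 66 (0.13, -0.37 to 0.63). The CemA-like ATCG00530 had 9 reads in the atpip1;2-1 library and 8 in the wild-type library. With ATCG00750 it fell under the minimum of 20 reads, so neither was tested.

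Further members that were lower by their interval ran from abundant to sparse. ATCG01130 had 1456 reads in the atpip1;2-1 library and 1780 in the wild-type library (-0.35, -0.45 to -0.25). ATCG00740 had a log2 ratio of -0.15 (-0.23 to -0.08) and ATCG00900, with its copy ATCG01240, one of -0.13 (-0.20 to -0.07). ATCG00160 was the 1 lower member past 1.5-fold, with 58 reads in the atpip1;2-1 library and 93 in the wild-type library (-0.74, -1.24 to -0.25). ATCG00170, the next locus in that order, was also lower by its interval, with 133 and 162 reads (-0.34, -0.68 to -0.00), as was ATCG00040, with 63 and 89 (-0.56, -1.04 to -0.07). The adjusted p of the exact binomial test was 0.21 for ATCG00170 and 0.12 for ATCG00040, so neither passed 0.05. The interval of ATCG00170 held 0 under all 4 other scalings, that of ATCG00900 with total counts or the sum of chloroplast reads, and those of ATCG00740 and ATCG00040 with the sum of chloroplast reads. ATCG00890 and its copy ATCG01250 had a log2 ratio of -1.76, but on 4 reads in the atpip1;2-1 library and 13 in the wild-type library it was not tested.

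Depth set what could be seen. The 12 members with at least 1000 reads had intervals of about 0.07 on either side of the log2 ratio (median), and 10 of the 12 excluded 0. Among nuclear loci at that depth 73.8% of 1053 did so. Of the 21 members with at least 100 but fewer than 1000 reads, 3 excluded 0. Over all 33 members with at least 100 reads the share was 39.4%, beside 33.1% of 8703 nuclear loci at the same depth. No nuclear share was taken for the class of these 21 alone or for that of 20 to 99 reads. Whether the counts of these 2 classes are usual for their depth was therefore not tested. The 18 members with 20 to 99 reads had intervals of about 0.91 on either side, and none excluded 0. Their levels ran from 2.17 to 9.42 CPM in the atpip1;2-1 library and from 2.01 to 10.0 CPM in the wild-type library. At the median interval of these 18, an observed ratio had to pass about 1.88-fold for its interval to exclude 0. That fold was larger for the members with the fewest reads, and it is not the size of difference that would be found reliably.

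**Figure D4:**
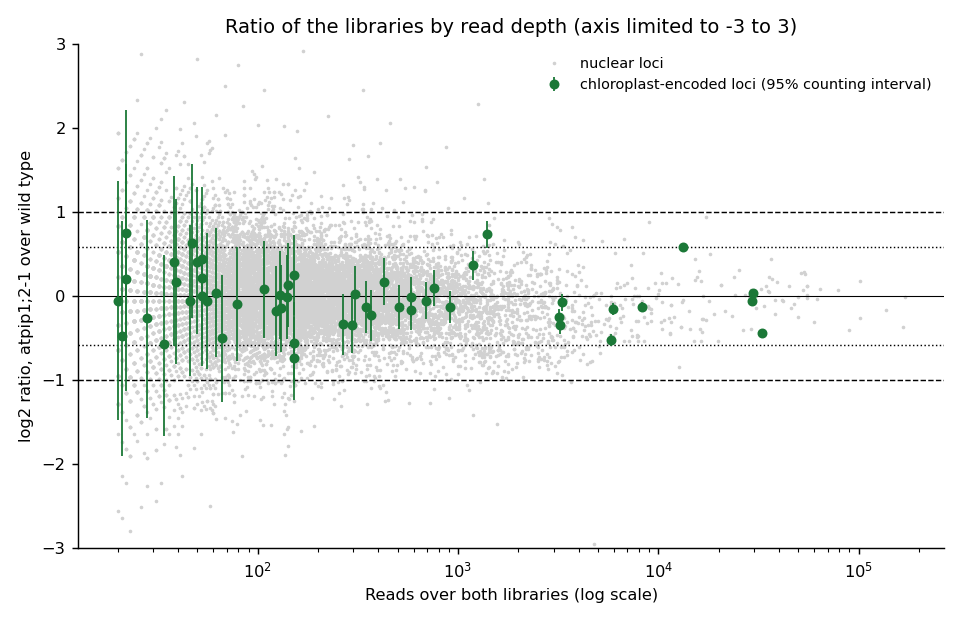
Log2 ratio of the atpip1;2-1 library over the wild-type library against the reads over both libraries (logarithmic axis) for the 51 chloroplast-encoded loci with at least 20 reads (green, bars for the 95% counting interval) and for nuclear loci (grey), with dashed lines at 2-fold and dotted lines at 1.5-fold. None of the 51 green points lies beyond a dashed line, and ATCG00630 lies highest among members with at least 100 reads at 0.73.

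The nuclear partners of the chloroplast genes were taken from 6 lists with 41 loci, all of them with at least 20 reads. Of these 41, 0 were called and 0 passed 1.5-fold, beside 2.40% and 11.3% of all loci tested. These shares are not matched for depth, since most of the 41 had at least 10000 reads over both libraries. At that depth, 2.17% of 92 nuclear loci, these partners included, passed 1.5-fold. No share of called loci was taken at that depth. The median log2 ratio of the 41 was -0.05. Total counts as library sizes raised each log2 ratio by 0.07, and the sum of chloroplast reads raised it by 0.097. Negative medians smaller in size than a shift, here and in the lists below, changed sign under it. The sigma factors and phage-type polymerases of chloroplast transcription had a median of -0.06 over 8 loci. Their reads came to 1246 in the atpip1;2-1 library and 1276 in the wild-type library. SIG2 had 298 and 372 reads in these libraries (-0.38, -0.60 to -0.15), and SIGE, the sigma factor induced by blue light and stress, had 106 and 73 (0.48, 0.04 to 0.93). The other 6 had intervals that held 0.

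The small subunits of Rubisco, which join the chloroplast-encoded large subunit, were lower in all 4 genes, with log2 ratios from -0.40 to -0.16. Their share of all reads was 5.61% in the atpip1;2-1 library and 6.56% in the wild-type library. The 12 nuclear loci of photosystem I had a median of 0.07, and 10 of them were positive. PSAF, a subunit on the lumen side where plastocyanin docks, was the highest with 7262 CPM in the atpip1;2-1 library and 6043 CPM in the wild-type library (0.27, 0.24 to 0.29). The 9 loci of photosystem II had a median of -0.09, from -0.36 for PSBQA to 0.23 for PSBW. The 4 loci of the ATP synthase and the cytochrome b6f complex had a median of -0.15 and the 4 of the NDH complex one of -0.10. The chloroplast-encoded partners in these complexes could not be set beside them gene by gene, because the identifiers are not paired with names.

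**Figure D5:**
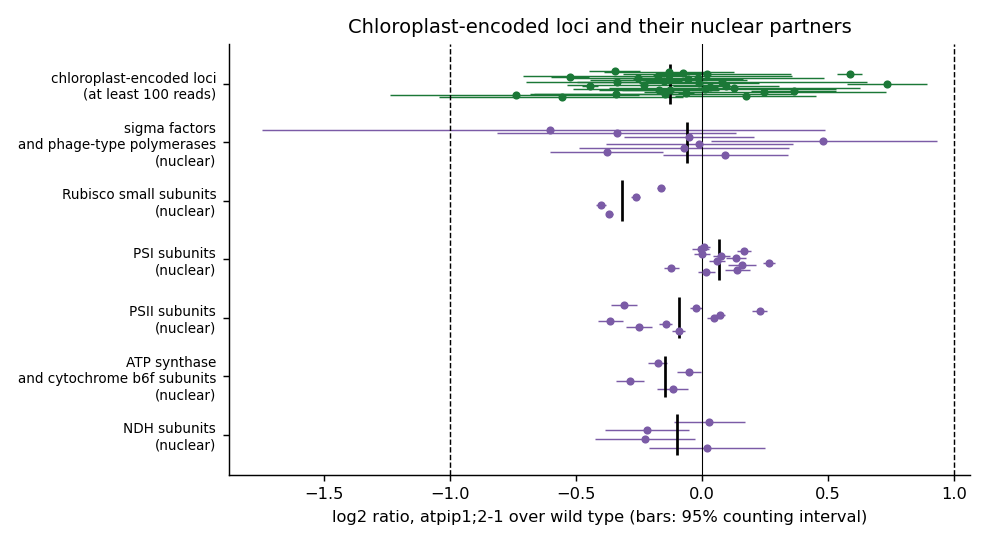
Log2 ratio of the atpip1;2-1 library over the wild-type library for chloroplast-encoded loci with at least 100 reads (green) and for 6 lists of nuclear partners (purple), with bars for the 95% counting interval, black ticks for the median and dashed lines at 2-fold. All points lie inside the dashed lines, and the 4 Rubisco small subunit loci lie between -0.40 and -0.16.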

How the data were processed

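The authors deposited raw read counts per locus, 1 column per genotype per the file headers, from 3'-end cDNA libraries of pooled leaves sequenced on a Genome Analyzer II, per the labels' protocols. The submitters' processing notes give TAIR9 as the genome build. The sources used here do not give the aligner, the counter, the use of strand or how reads with several matches were handled. 1 locus listed more than once was kept once. Library sizes were scaled by TMM factors (1.02 in the atpip1;2-1 library and 0.976 in the wild-type library) from edgeR 4.0.16 in R 4.3.3. The quasi-likelihood test of edgeR needs replicates and could not be fitted. The main comparison was an exact binomial test of the reads, two-sided, with Clopper-Pearson intervals at the 95% level (Python 3.11.15, scipy 1.17.1). The rule was tested on simulated data that held counting error only, so that test did not cover spread between plants or libraries.

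The members and lists were chosen with earlier results of these data known. Named members were the 12 with most reads, the 6 highest and 6 lowest log2 ratios among members with at least 100 reads, every pair of identical copies and every called member. Loci named in the annotation, neighbours in locus order and nuclear partners are named besides. Members could not be grouped by complex for lack of names. Sequences are not printed, since the build differs and identifiers are not paired with genes. The alternatives were other library sizes (DESeq2 1.42.0 among them), read minimums, thinning and edgeR's exact test.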

Additional observations from a re-analysis of the deposited data

How the results depend on the processing

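The count of 0 members called was the same under the 9 alternatives of scaling, read minimum, copies and depth. Several of these could add no call. The 4 other scalings raised each log2 ratio by at most 0.097, and the highest of a tested member was 0.75. A read minimum of 100 and counting both copies brought in no new ratio. The exact test of edgeR with an assumed coefficient of variation of 0.1 or 0.2 also gave 0, but it could add no call, since no tested member reached 2-fold. The count past 1.5-fold was 3 or 4 and the count with an interval that excluded 0 was 10 to 15 under the 9 alternatives tried for each. The median log2 ratio of the members, -0.06 as reported, was -0.040 with DESeq2 size factors, -0.13 with a read minimum of 100, and above 0 with total counts (0.013), totals without organelle loci (0.012) and the sum of chloroplast reads as library size (0.041). The log2 ratio of the chloroplast share, -0.04 as reported, was -0.027 with identical copies counted once. In alternatives chosen after seeing the data it was -0.11 without ATCG01020, 0.040 without ATCG00470 and -0.059 without the 4 Rubisco small subunit loci in the total. The cause of these shifts in the share is the removal of those reads. Of the 21 named members, 14 to 21 stayed within their interval under each of the 4 other scalings. No paired analysis was possible because each genotype has 1 library. A replicate could not be left out for the same reason, so spread between plants was not measured.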
